A study of Mus musculus with 4 samples.

Results

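A set of 8 genes that mark regions of the stomach was followed, namely gastrin (Gast) and the transcription factor genes Pdx1, Nkx6-3, Onecut2, Gata4, Gata5, Gata6 and Sox2. They were picked by name, as the hormone of the antrum and as regional regulators, with earlier results of the same libraries known, and all 8 were among the 34866 genes of the deposited table. The samples were gastric mucosa of the corpus from mice that lack the gland mucin gene Muc6 (Muc6 -/-, here knockout, 2 libraries) and from Muc6 +/+ mice (here wild type, 2 libraries). The labels used here give no strain, age, sex or targeting method, and they do not tie libraries to animals, so the spread within a genotype may be technical. The design sets the genotypes against each other to ask how Muc6 relates to gastric carcinogenesis.

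The glandular stomach has an acid- and zymogen-secreting corpus and a distal antrum of mucous glands with G cells, the endocrine cells that release gastrin into the blood. Gastrin acts through its receptor Cckbr on histamine-storing endocrine cells and on parietal cells of the corpus and so drives acid secretion. Pdx1 and Nkx6-3 are homeodomain factors of the antrum that G cells need in the mouse, and Pdx1 also marks the duodenum and pancreas. GATA factors and Sox2 are broader: the GATA proteins bind the proton pump genes, and Sox2 is an HMG-box factor of the foregut, its squamous lining and gastric progenitors.

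The libraries differed in ways that touch every value below. Total estimated counts were between 20327745 and 27946423. Muc6 had 0 and 10 counts in knockout 1 and 2, against 8542 and 6000 counts in wild type 1 and 2, as the labels require. The 4 Y-linked genes counted (Ddx3y, Eif2s3y, Kdm5d and Uty) together had 1.44 and 2.44 CPM, counts scaled to the normalised library size, in knockout, against 136 and 121 CPM in wild type. Genotype and Y-linked expression therefore cannot be told apart. If these genes track the sex of the mice, neither can genotype and sex, in any comparison of the genotypes below. The 11 corpus markers, which include the proton pump gene Atp4a and the zymogen gene Pgc, were present in all 4 libraries. They summed to 3033 CPM in knockout 1 and 99860 CPM in knockout 2, against 93050 and 196700 CPM in wild type, and most of that sum was Pgc. Atp4a, one of the parietal cell genes, was low in both knockout libraries, at 353 and 3331 CPM, against 10500 and 10460 CPM in wild type. Of the 11 markers, 10 were lower in the fit and 7 were lower without overlap, against 23.8% of all genes tested. In edgeR's test 0 passed, and 2 had an unadjusted p under 0.05, against 15.9% of all genes tested. DESeq2 called 5, against 7.42% of all genes tested, and limma voom called 0. Knockout 1, labelled corpus like the others, thus stood apart, with low corpus markers and, as given next, high antral genes. The labels give no position within the corpus, so sampling position and genotype cannot be told apart in any value of knockout 1 or in a fold change that rests on it. In such bulk samples, fewer cells of a type and less RNA per cell cannot be told apart.

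Gastrin and 3 antral homeodomain genes were abundant in knockout 1 alone. Gast, which encodes the gastrin precursor, had 218 and 0 counts in knockout 1 and 2, against 1 and 0 counts in wild type 1 and 2. That was 9.77 CPM in knockout 1 (95% counting interval 8.52 to 11.2), while the other knockout library and both wild-type libraries lay at or below a floor of 3 counts, or 0.121 to 0.156 CPM. Knockout 1 was 78.9-fold higher than knockout 2, taken against 3 counts in that library, and the lower 95% counting bound was 63.6-fold. Against the summed wild-type counts, knockout 1 was 430-fold higher (95% counting interval 76.4 to 17060), on 1 wild-type read.

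The bases just upstream of the starts of Gast and Pdx1 are shown because these 2 genes are the hormone and the factor most tied to the antrum. They are RefSeq sequence of the plus strand on GRCm38.p6, at chr11:100334157-100334406 for Gast and chr5:147269847-147269958 for Pdx1, each ending where the GENCODE gene begins. The Gast gene itself overlaps no other annotated gene, and the antisense gene Plut on the minus strand overlaps the Pdx1 gene. Capitals mark a motif.

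Gast: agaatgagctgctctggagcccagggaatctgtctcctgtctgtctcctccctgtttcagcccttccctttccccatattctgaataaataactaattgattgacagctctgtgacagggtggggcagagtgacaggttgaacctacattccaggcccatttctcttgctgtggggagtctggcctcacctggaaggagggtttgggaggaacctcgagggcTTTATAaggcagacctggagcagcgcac

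Pdx1: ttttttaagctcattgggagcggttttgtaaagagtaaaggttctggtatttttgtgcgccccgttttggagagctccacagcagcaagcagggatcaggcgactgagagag

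A script searched the whole 250 bases before each RefSeq start, also where fewer are printed, on both strands for 3 motifs. The first was GATAA, which GATA factors bind. The second, a core of many homeodomain sites, was TAATTA. The last was the TATA box, searched as TATAAA. The Gast window held the letters TATAAA on the minus strand, which appear as TTTATA in the plus-strand letters above, 28 to 23 bases before the start. Overlapping them, the plus strand reads TATAAG, a form not searched, so the match does not give the direction of a TATA box. Of 32851 RefSeq windows, 12.4% held TATAAA, 22.6% GATAA and 4.84% TAATTA. Among the members, the windows searched were those of Gast, Pdx1, Gata5 and Sox2. The last 3 held none of these letters, which says nothing about binding. Member windows on chromosome 18, where Onecut2 and Gata6 lie, were left out of the search.

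Pdx1 was high in knockout 1 and also above wild type in knockout 2. It had 1316 and 61 counts in knockout 1 and 2, against 7 and 1 counts in wild type, or 59.0 and 2.52 CPM against 0.282 and 0.0521 CPM. Knockout 1 was 324-fold above the summed wild-type level (95% counting interval 164 to 753) and knockout 2 was 13.9-fold above it (6.60 to 33.5). The genotypes did not overlap, but the knockout libraries lay 23.4-fold apart (18.1 to 30.8). Plut, which overlaps the Pdx1 gene, is not a row of the table used here. Fitted with all genes, the log2 fold change of Pdx1, here and below knockout over wild type with its SE from n = 2 per genotype, was 7.39 ± 2.07, and 3.80 ± 1.23 without knockout 1.

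Nkx6-3, with the highest count of the antral factors in knockout 1, separated knockout 1 from the other 3 libraries. It had 2716 and 11 counts in knockout 1 and 2, against 9 and 6 counts in wild type, or 122 and 0.454 CPM against 0.363 and 0.313 CPM. Knockout 1 was 268-fold above knockout 2 (95% counting interval 150 to 538). Knockout 2 stood at 1.33 times the summed wild-type level with an interval of 0.553 to 3.10, so no difference was detectable at this depth. The log2 fold change was 7.47 ± 2.84 with all libraries, and 0.37 ± 1.30 without knockout 1.

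Onecut2, a cut-homeodomain factor of the HNF6 family, was also high in knockout 1 alone. Its estimated counts were 532 and 1.19 in knockout 1 and 2, against 6.002 and 7.65 in wild type, or 23.9 and 0.0413 CPM against 0.242 and 0.417 CPM. Knockout 1 was 74.9-fold above the summed wild-type level (95% counting interval 44.3 to 138), whereas knockout 2 was at 0.130 times that level (0.00307 to 0.853). Its genotypes therefore overlapped, as did those of Gast. Gast and Onecut2 did not pass the filter on low counts, and a fit without the filter gave log2 fold changes of 7.43 ± 3.47 for Gast and 5.13 ± 2.78 for Onecut2.

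**Figure D1:**
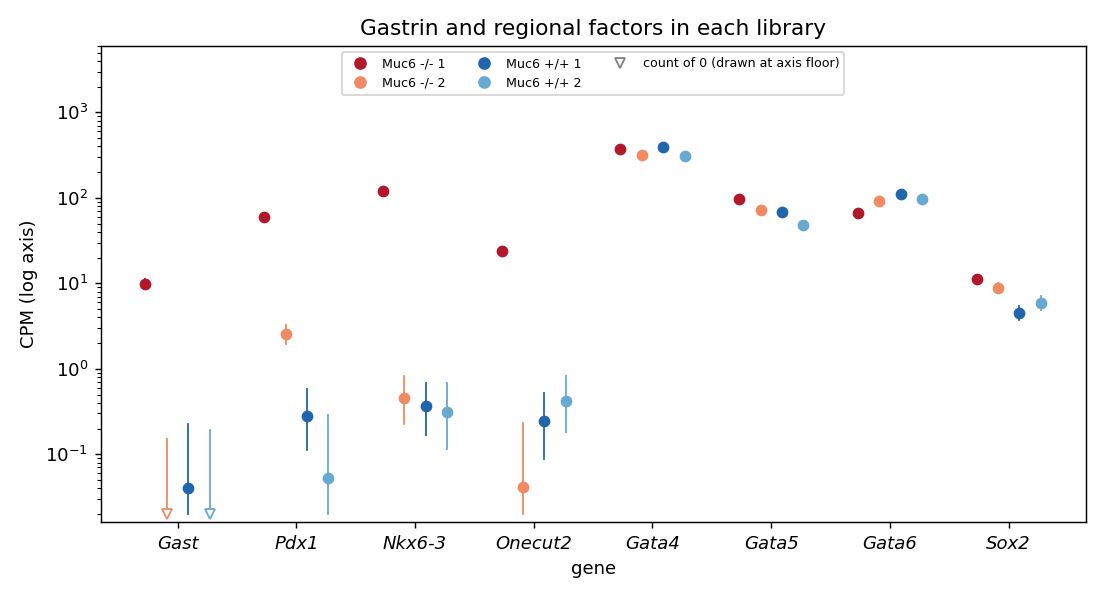
CPM on a log axis for each of the 8 genes, 1 point per library with its 95% counting interval, Muc6 -/- libraries to the left of Muc6 +/+ libraries. Gast, Pdx1, Nkx6-3 and Onecut2 lie between 9.77 and 122 CPM in Muc6 -/- 1 and at 2.52 CPM or below elsewhere, while the 3 GATA genes and Sox2 stay within a narrow band.

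The gap between the knockout libraries was rare among genes. Between knockout 1 and knockout 2, 0.349% of 14058 genes (mean count of 10 or more) were more than 16-fold higher in knockout 1 and 0.341% were more than 16-fold lower. Between the wild-type libraries, 0.349% lay that far apart in either direction. All 4 antral genes passed that mark, and the GATA genes and Sox2 did not. The genes were picked with earlier results of these libraries known, so this carries no test.

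Gata4, the most abundant GATA gene of the mucosa, did not differ by more than its error. It had 8303 and 7633 counts in knockout, against 9680 and 5883 counts in wild type, or 372 and 315 CPM against 391 and 306 CPM. The genotypes overlapped, with wild type 1 the highest and wild type 2 the lowest. The log2 fold change was -0.02 ± 0.23 with all libraries, and its sign turned to 0.03 when library sizes were taken without the 20 top genes. Both knockout libraries, where Atp4a was at 353 and 3331 CPM, against 10500 and 10460 CPM in wild type, held Gata4 within the wild-type range.

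Gata5 was higher and Gata6 lower in knockout, both by small steps. Gata5 had 97.0 and 71.6 CPM in knockout 1 and 2, against 68.4 and 48.2 CPM in wild type, so that the nearest libraries of the genotypes almost touched. Its log2 fold change was 0.53 ± 0.26 with all libraries, and 0.25 ± 0.23 without knockout 1, 0.81 ± 0.31 without wild type 1 and 0.29 ± 0.30 without wild type 2. Gata6 had 67.02 and 92.2 CPM in knockout, against 111 and 96.5 CPM in wild type, with knockout 1 the lowest. Its log2 fold change was -0.38 ± 0.22, -0.22 ± 0.15 without knockout 1 and -0.68 ± 0.15 without knockout 2. An antisense transcript of each gene overlaps it in the annotation and is not a row of the table used here, so unless the counting used strand, which the sources used here do not state, their reads cannot be told apart.

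Per kilobase of exon, the scale on which levels of different genes are compared here, Gata4 led in all 4 libraries. It stood at 95.3 and 80.7 CPM per kb in knockout and at 100.03 and 78.5 CPM per kb in wild type. Gata5 stood at 29.6 and 21.8 CPM per kb in knockout, against 20.9 and 14.7 CPM per kb in wild type, and Gata6 at 10.3 and 14.2 CPM per kb against 17.1 and 14.8 CPM per kb. The summed level of the 3 genes was 135 and 117 CPM per kb in knockout, against 138 and 108 CPM per kb in wild type. The share of Gata5 in that sum was 21.9% and 18.7% in knockout, against 15.1% and 13.6% in wild type. The share of Gata6 was 7.62% and 12.1% in knockout, against 12.4% and 13.7% in wild type, and that of Gata4 was 70.5% and 69.2% against 72.5% and 72.7%.

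**Figure D2:**
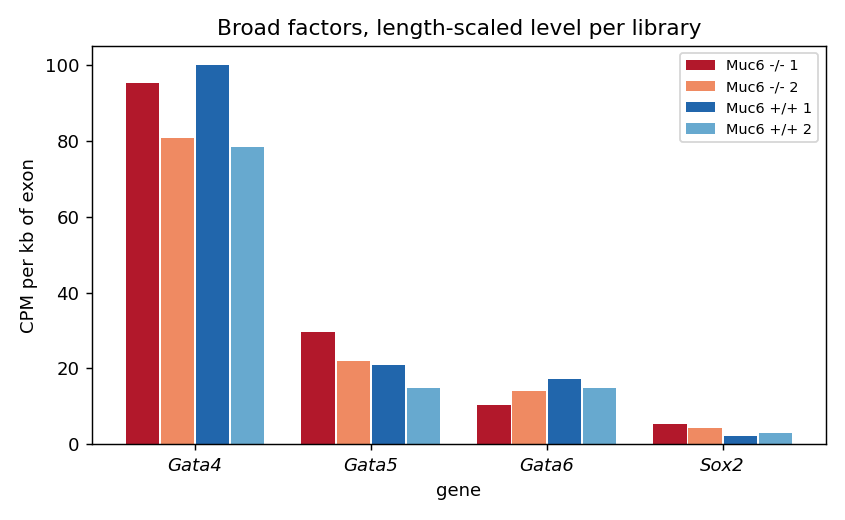
Length-scaled level (CPM per kb of exon) of Gata4, Gata5, Gata6 and Sox2 in each library, Muc6 -/- bars left of Muc6 +/+ bars. Gata4 is the tallest in every library, between 78.5 and 100.03, and Sox2 the lowest, between 2.20 and 5.41.

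Sox2 was higher in both knockout libraries by similar amounts. It had 248 and 213 counts in knockout, against 112 and 113 counts in wild type, or 11.1 and 8.80 CPM against 4.52 and 5.89 CPM. The genotypes did not overlap and averaged 9.96 ± 1.64 CPM in knockout and 5.20 ± 0.967 CPM in wild type (SD, n = 2 each). The log2 fold change was 0.94 ± 0.27 with all libraries, and 0.70 ± 0.36 without knockout 1. The gene lies within the annotated transcript Sox2ot on the same strand, which is not a row of the table used here.

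Of the 8 genes, 5 had no overlap between the genotypes: Pdx1, Nkx6-3, Gata5 and Sox2 higher and Gata6 lower in knockout. Among all 14067 genes tested, 50.1% had none in either direction, 26.3% higher and 23.8% lower. These values come from the contrast that was known when the genes were picked, so they carry no test. With knockout 2 as the sole knockout library the number was 6, with Onecut2 added on the lower side, where 70.8% of all genes tested lay outside the wild-type range in either direction and 34.6% below it, so 6 of 8 was near the background.

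Ranked per kilobase of exon, the order within a library showed where knockout 1 differed. In knockout 1 the order from high to low was Gata4, Nkx6-3, Gata5, Pdx1, Gast, Gata6, Sox2 and Onecut2, with Nkx6-3 at 54.4, Pdx1 at 27.3, Gast at 21.3 and Onecut2 at 1.47 CPM per kb. In knockout 2 and both wild-type libraries the 3 GATA genes came first and Sox2 next, and each antral gene stood at 1.17 CPM per kb or less. Gata5 and Gata6 changed places in wild type 2, where they stood at 14.7 and 14.8 CPM per kb, a gap smaller than the spread between libraries.

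**Figure D3:**
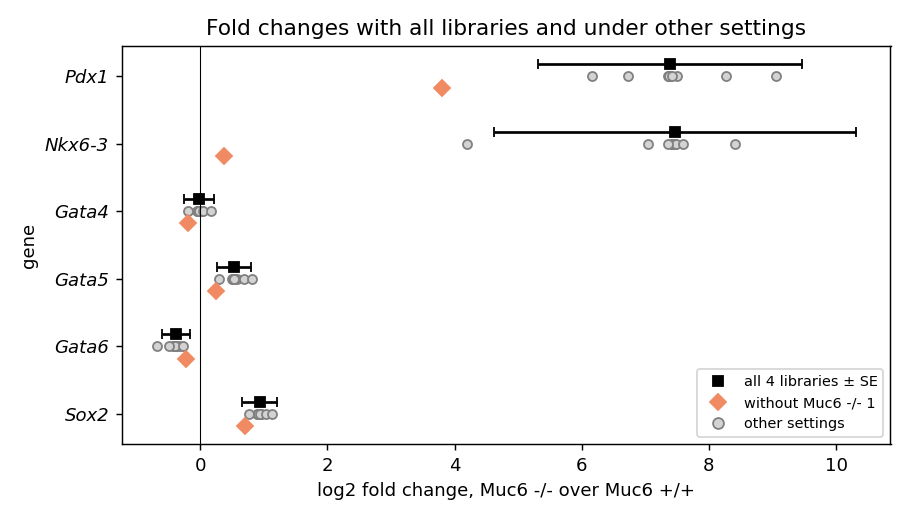
Log2 fold change of Muc6 -/- over Muc6 +/+ for the 6 genes in the fit: squares with SE for all 4 libraries, diamonds without Muc6 -/- 1, grey circles for the other settings. Nkx6-3 lies at 7.47 with all libraries and 0.37 without Muc6 -/- 1, Pdx1 at 7.39 and 3.80, while Sox2 stays between 0.70 and 1.13 in all settings.

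The relatives of these genes and the other genes of the gastrin pathway were examined in 4 lists of 73 genes, of which 46 were tested. None passed an adjusted p of 0.05 in edgeR's quasi-likelihood test, where 0% of all 14067 genes tested passed. Muc6 itself did not pass (edgeR adjusted p = 0.178), so a gene that did not pass here cannot be taken as unchanged. At an unadjusted p under 0.05 there were 5 of the 46, against 15.9% of all genes tested. DESeq2 called 3 of the 46 (Hdc, Nkx6-2 and Onecut3), against 7.42% of all genes tested, and limma voom called 0.

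Close relatives of the antral factors were among the few with a low p. Onecut3, a paralog of Onecut2, had 505 and 51 counts in knockout 1 and 2, against 4 and 0 counts in wild type, or 22.6 and 2.11 CPM against 0.161 and 0 CPM. Its log2 fold change was 7.05 ± 1.83 (edgeR adjusted p = 0.244), and 4.51 ± 1.64 without knockout 1. Nkx6-2, the paralog of Nkx6-3 with the same class of homeodomain, was at 47.3 and 35.0 CPM in knockout, against 13.6 and 11.1 CPM in wild type, with both knockout libraries well above both wild-type libraries. Its log2 fold change was 1.73 ± 0.22 (edgeR adjusted p = 0.187), and 1.46 ± 0.16 without knockout 1 (edgeR adjusted p = 0.147). It passed without knockout 2 (1.88 ± 0.15, edgeR adjusted p = 0.0221), a fit that rests on knockout 1.

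The list of paralogs and cofactors as a whole, with 7 of 13 genes tested, had 4 higher and 3 lower in the fit and a median log2 fold change of 0.04, against -0.0017 over all genes tested. Zfpm1, which encodes the GATA cofactor FOG1, was at 160 and 136 CPM in knockout, against 122 and 85.3 CPM in wild type (log2 fold change 0.52 ± 0.24, edgeR adjusted p = 0.400). Gata2, a blood and mast cell factor, was at 1.39 and 4.38 CPM against 2.46 and 3.39 CPM. Onecut1, Nkx6-1, Sox1 and Sox3 had at most 2 counts in any library. Sox21, a relative of Sox2, was at 94.8 and 45.0 CPM in knockout, against 75.6 and 60.0 CPM in wild type, with the genotypes overlapping.

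Among 31 other regional factors, 22 were tested, 11 higher and 11 lower in the fit, with a median log2 fold change of 0.07. The Iroquois homeodomain genes ran opposite to the antral factors in knockout 1. Irx5 had 0 and 71 counts in knockout 1 and 2, against 234 and 62 counts in wild type, and Irx2 had 0 and 142 counts, against 190 and 54. Irx3 had 3 and 55 counts in knockout, against 152 and 37 in wild type. Taken at a floor of 3 counts, knockout 1 was 50.03-fold lower for Irx5 and 41.2-fold lower for Irx2 than summed wild type. The lower 95% counting bounds of these folds were 40.4 and 33.3. Knockout 2 stood at 0.436 times wild type for Irx5 (95% counting interval 0.331 to 0.566) and 1.06 times for Irx2 (0.853 to 1.31). With both knockout libraries in the fit, the edgeR adjusted p was 0.655 for Irx5 and 0.880 for Irx2.

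Other factors split by library number, by genotype or by neither. Of the 22 other regional factors tested, 5 were higher and 3 lower without overlap. Among all genes tested, 26.3% were higher and 23.8% lower without overlap. Barx1, a homeobox gene of the stomach mesenchyme, was at 1.97 and 12.9 CPM in knockout 1 and 2, against 2.02 and 16.6 CPM in wild type 1 and 2, and the 8 smooth muscle markers summed to 459 and 2165 CPM in knockout, against 343 and 2094 CPM in wild type. The part of muscle content in these values was not tested. Pitx1, a homeodomain factor, was at 18.7 and 6.32 CPM in knockout, against 3.75 and 7.76 CPM in wild type. The endoderm factors Foxa1 (157 and 158 CPM in knockout, against 120 and 111 CPM in wild type, edgeR adjusted p = 0.296) and Sox9 (56.8 and 74.4 CPM in knockout, against 32.0 and 41.8 CPM in wild type, edgeR adjusted p = 0.250) did not overlap between the genotypes. Hnf4a was at 267 and 172 CPM in knockout, against 224 and 160 CPM in wild type. The intestinal factor Cdx2 had 9 and 0 counts in knockout and 0 in both wild-type libraries, and its relative Cdx1 had at most 1 count in any library.

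**Figure D4:**
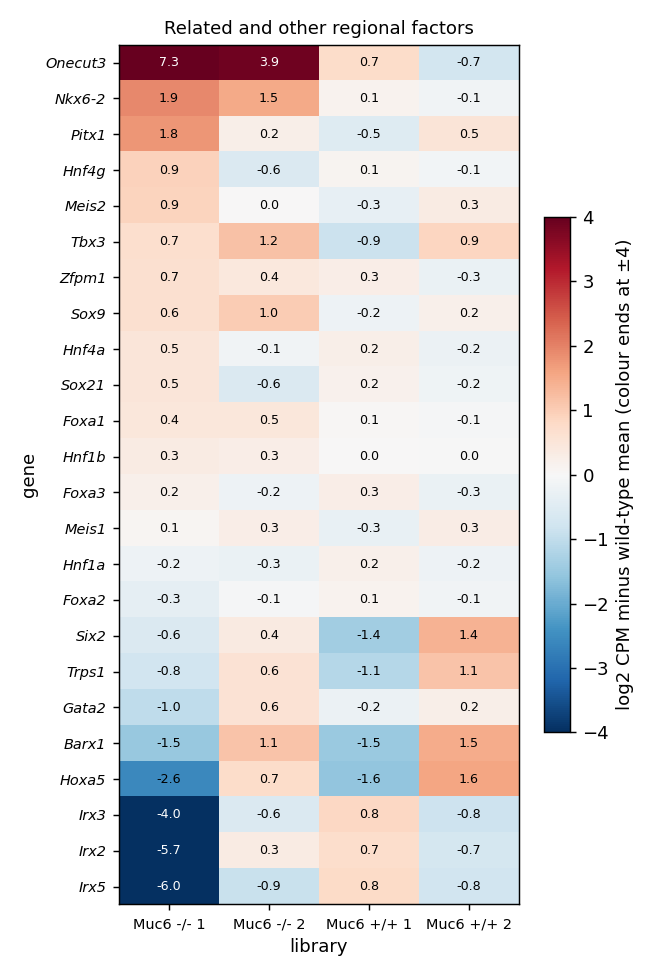
Log2 CPM minus the wild-type mean for the 24 related and other regional factors with at least 50 counts in any library, Muc6 -/- columns left of Muc6 +/+ columns, genes sorted by Muc6 -/- 1. Onecut3 leads at 7.26 in Muc6 -/- 1 and 3.88 in Muc6 -/- 2, and Irx3, Irx2 and Irx5 lie at -3.99, -5.75 and -5.99 in Muc6 -/- 1 but between -0.90 and 0.33 in Muc6 -/- 2.

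Most other genes of the gastrin pathway were lower in knockout in the fit, though none passed the test. Of 17 genes for gastrin processing, its receptors and the cells it acts on, 14 were tested, with 2 higher and 12 lower in the fit and a median log2 fold change of -0.48. In 6 of them the genotypes did not overlap, all lower, against 23.8% of all genes tested. The processing enzymes Pcsk1 (3.45 and 3.14 CPM in knockout, against 2.86 and 5.57 CPM in wild type) and Pcsk2 overlapped between genotypes, and the amidating enzyme Pam was at 58.2 and 61.2 CPM in knockout, against 72.4 and 75.8 CPM in wild type (edgeR adjusted p = 0.345). Cckbr, the gastrin receptor, had 5 and 56 counts in knockout 1 and 2, against 88 and 62 counts in wild type. The related receptor gene Cckar was at 0.762 and 39.2 CPM in knockout, against 41.3 and 89.8 CPM in wild type.

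Hdc, Slc18a2 and Chga lay below both wild-type libraries in each knockout library, though none passed the edgeR test. Hdc, which makes histamine, was at 1.12 and 2.56 CPM in knockout, against 9.48 and 18.7 CPM in wild type (log2 fold change -2.93 ± 0.60, edgeR adjusted p = 0.226), and -2.52 ± 0.63 without knockout 1. Slc18a2, the vesicular monoamine transporter, was at 2.38 and 8.47 CPM in knockout, against 15.5 and 26.4 CPM in wild type (edgeR adjusted p = 0.316). Chga, the granule protein chromogranin A, was at 10.2 and 72.3 CPM in knockout, against 119.9 and 292 CPM in wild type (edgeR adjusted p = 0.397). Sst, the somatostatin of D cells, was at 20.7 and 133 CPM in knockout, against 88.5 and 217 CPM in wild type, with the genotypes overlapping. Of 12 endocrine transcription factors 3 were tested (Isl1, Insm1 and Rfx6), with a median log2 fold change of -1.15. Neurog3, which starts the endocrine lineage, had 2 and 1 counts in knockout and 0 in both wild-type libraries.

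Markers of neighbouring tissues were counted beside the antral genes. Of 14 pancreas markers, Ins1, Ins2 and Prss2 were at 0 in all 4 libraries, and Ptf1a had 0 and 8 counts in knockout, against 29 and 33 in wild type. Of 4 pancreas markers tested 1 was higher and 3 lower in the fit, with a median log2 fold change of -1.65. The pancreas list summed to 117 and 56.2 CPM in knockout, against 26.6 and 25.6 CPM in wild type, of which Cela1, a gene also expressed outside the pancreas, gave 116 and 54.5 CPM in knockout. The 11 intestine markers summed to 1072 and 857 CPM in knockout, against 1843 and 1637 CPM in wild type, a sum that Apoa1, an apolipoprotein gene, led in wild type with 59.4 and 468 CPM in knockout, against 1606 and 1384 CPM. Of 9 intestine markers tested, 5 were higher and 4 lower in the fit, with a median log2 fold change of 1.20. Alpi, Vil1, Fabp2 and Muc2 (4 of 9) were higher without overlap, against 26.3% of all genes tested. Lct, Apoa1 and Apoa4 (3 of 9) were lower without overlap, against 23.8% of all genes tested. Alpi, the intestinal alkaline phosphatase, was at 555 and 153 CPM in knockout, against 5.002 and 0.208 CPM in wild type. The 12 markers of squamous epithelium, where Sox2 is also expressed, summed to 685 and 151 CPM in knockout, against 44.0 and 15.1 CPM in wild type. Most of that sum was Ly6d, at 525 and 138 CPM in knockout, against 42.8 and 14.2 CPM in wild type. Of 5 squamous markers tested, all 5 were higher without overlap, against 26.3% of all genes tested. All 5 had an unadjusted p under 0.05 in edgeR's test, against 15.9% of all genes tested, and 0 passed. DESeq2 called 4, against 7.42%, and limma voom called 0. Krt13 had 2610 and 136 counts in knockout, against 21 and 5 in wild type. Krt4, Krt14 and Krt6a had 0 counts in wild type, so they passed the count filter through knockout alone. Trp63, Krtdap and Sprr3 were at 0 throughout. Mesothelium markers, 5 genes, summed to 5.56 and 4.09 CPM in knockout, against 2.82 and 6.04 CPM in wild type. The part of any of these tissues in the 8 genes' values was not tested.

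The genes whose profile over the 4 libraries lay nearest to Gast and to Pdx1 were sought, at a mean count of 10 or more, by Euclidean distance between centred log2 CPM values. For Gast they were Otop3, a proton channel gene (219 and 1 counts in knockout, against 1 and 0 in wild type, distance 0.477), the metalloproteinase gene Mmp10, the urinary protein gene Mup18 of a family of near-identical copies, the serine protease gene Prss32 and the tight junction gene Cldn7. For Pdx1 they were the keratin gene Krt13 (2610 and 136 counts in knockout, against 21 and 5 in wild type, distance 0.285), Onecut3 (distance 0.825), the cornified envelope gene Ivl, the ectodysplasin receptor gene Eda2r and Khdc1a. Many genes share a pattern over so few libraries, and these distances describe only them.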

How the data were processed

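RNA sequencing measured poly(A) RNA of corpus mucosa in 2 Muc6 -/- and 2 Muc6 +/+ libraries, made with a stranded mRNA kit, per the labels' protocols. The build was mm10, per the submitters' processing notes. The sources used here name no aligner, counter or annotation and no use of strand. The authors deposited 1 table of estimated counts per gene, not normalized as far as its values show, in which 35.0% of nonzero values were not whole. These expected counts were rounded. Identifiers without version matched GENCODE M21 for 34582 of 34866 rows, which gave symbols, positions and exon lengths.

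Knockout was compared with wild type in edgeR 4.0.16 under R 4.3.3 (robust quasi-likelihood test, TMM scaling, filterByExpr at a minimum of 10) on 14067 genes with Benjamini-Hochberg adjustment at 0.05, tested on simulated data. The SE is the log2 fold change divided by the square root of F. CPM use TMM-scaled library sizes. Counting intervals are exact (Poisson for a CPM, Clopper-Pearson for a ratio of counts) and, like the floor of 3 counts, cover counting error only. Log2 CPM used a prior count of 2. With 2 libraries against 2, single genes were tested only in fits across all genes. DESeq2 1.42.0, limma 3.58.1 (voom), other scalings and filters, a block for sample number, and fits without each library, where the lone library left in a genotype is assumed to vary like the other genotype's, were the alternatives.

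The 8 genes and the lists were chosen with earlier results of these data known, so the 8 genes carry no test. Named genes were those 8, any gene of the lists, Muc6, and the 5 nearest profiles to Gast and to Pdx1. Promoter sequence is RefSeq, GRCm38.p6.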

Additional observations from a re-analysis of the deposited data

How the results depend on the processing

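The count of genes past an adjusted p of 0.05 was 0 of 14067 in edgeR, with 2236 at an unadjusted p under 0.05. It was also 0 under upper-quartile and relative log expression factors, sizes computed without the 20 top genes, the filter of 50 counts in 2 libraries and limma voom. It was 9 with no filter and 1044 in DESeq2, and leaving out a library gave 0 to 851, the highest without knockout 2 and 9 without knockout 1. For the 46 tested genes of the 4 lists, DESeq2 called 3 and leaving out a library gave 0 to 1. The sample number as a replicate block gave 0 calls over all genes and 0 in the lists. The labels do not say that a number marks a shared animal or day, and with 2 pairs the check of pairing is only a hint: over the tested genes, the knockout 1 minus 2 difference correlated with the wild type 1 minus 2 difference at 0.517, across genes, which are not replicates. Log2 fold changes of Pdx1, Nkx6-3, Gata5, Gata6 and Sox2 kept their sign under every setting that gave a value. Nkx6-3 gave none under the filter of 50 counts. Without knockout 1 it was at 0.37 and Pdx1 at 3.80, and in limma voom Nkx6-3 was at 4.19 ± 8.79 and Pdx1 at 6.16 ± 8.34. Leaving out a library moved Gata5 within 0.25 to 0.81 and Gata6 within -0.68 to -0.22. Gata4 changed sign, to 0.032 with sizes computed without the 20 top genes and within -0.19 to 0.17 when a library was left out. The cause of these moves was not tested. The count of the 8 genes without overlap between genotypes was 6 without knockout 1, where 70.8% of all genes tested had none, against 5 with all libraries, where 50.1% had none, an alternative chosen after seeing the data. Few counts limit Gast, Onecut2 and Nkx6-3 outside knockout 1.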
